A study of Mus musculus with 6 samples.

Results

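The genes described here are Per2, a gene of the circadian clock, and Usp2, a gene whose expression follows the clock, in the livers of mice given an agonist of the farnesoid X receptor (FXR). They were chosen by name. Every probe set that the authors' deposited list of differing probe sets assigned to Per2 or Usp2 alone was taken, which gave 1 probe set of Per2 and 2 of Usp2, or 3 of the 110 listed probe sets and 2 of the 87 genes that could be named. That list was selected on GW4064 against vehicle in these same livers, by its header at a fold of 1.5 and an unadjusted p of 0.05. The deposited levels do not give back these limits exactly, since Bcl2l11, which is on the list, was only 1.49-fold lower by them. The higher level of all 3 probe sets in GW4064 livers therefore belongs to their choice and is given as a description. A fit over all probe sets is given as background. The SEs of differences below come from that fit, which draws each spread toward that of all probe sets. With all 6 arrays, the SEs for Per2 and Usp2 are smaller than these mice alone would give. Beyond these SEs, the counts of calls and the alternative settings at the end, no statement on Per2 or Usp2 rests on a fit. All mice were adult C57BL/6J of wild type genotype. GW4064, a synthetic FXR agonist, was given to 3 of them and vehicle to 3, and each liver was measured on 1 Affymetrix array. Each dose of GW4064 was 100 mg per kg body weight, and there were 3, the first at 8 am, a further one at 6 pm and the last at 8 am of the following day. Vehicle mice were dosed at the same hours, and all livers were collected 2 hours after the last dose, which is at 10 am. By the study's methods both groups had been fasted overnight from the second dose, and lights came on at 6 am. Time of day and fasting are thus shared by both groups.

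Nearly every cell of the body keeps a clock of transcription. CLOCK and BMAL1 activate genes through E-box sequences, and the PER and CRY proteins made from such genes return to the nucleus and inhibit their own activators over the course of a day. Per2 encodes one of the inhibitors. In mouse liver its mRNA is known to be low in the morning and high around nightfall, and it also responds to signals from outside the cell such as glucocorticoids and feeding. Usp2 encodes a deubiquitinase, an enzyme that removes ubiquitin from other proteins. Its mRNA has a daily rhythm in many mouse tissues, its protein has been found to act on clock proteins in mice, and its short isoform is known in mouse liver for a part in fasting glucose production. Levels below are log2 values. One unit is a doubling of the signal, and values of different probe sets cannot be ranked as amounts of mRNA.

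RefSeq promoter sequence was matched by symbol for 1 of the 2 genes, Usp2 (Per2 was not matched). It is shown because E-boxes, D-boxes and cyclic AMP response elements (CREs) are the elements through which clock genes are usually driven. The 253 bases run from 250 bases before a RefSeq transcript start of Usp2 to base 3 of the transcript, at chr9:44084670-44084922 on the plus strand of GRCm38.p6. Usp2 has several annotated transcripts, and the arrays do not show which of them was made. Capitals mark TGACGTC, which shares its letters with the first 7 of the 8 bases of a CRE.

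Usp2: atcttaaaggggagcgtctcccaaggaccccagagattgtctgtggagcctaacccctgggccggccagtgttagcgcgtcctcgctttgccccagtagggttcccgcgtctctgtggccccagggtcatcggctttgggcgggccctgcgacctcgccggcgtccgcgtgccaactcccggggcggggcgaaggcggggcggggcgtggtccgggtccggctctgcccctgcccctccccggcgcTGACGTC

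The window is rich in G and C (71.5% of its bases). Both strands of the 300-base window, from 250 bases before to 50 after the start, were searched. It held no E-box (CACGTG, present in 7.15% of the 32851 windows in the table), no E-prime box (CACGTT, 4.68%), no D-box (TTATGTAA or TTACGTAA, 1.06%) and no whole CRE (TGACGTCA, 1.79%). In these exact letters it also held no nuclear receptor hexamer (AGGTCA, 16.3%) and no core of a glucocorticoid element (ACANNNTGT, 6.85%). The perfect inverted repeat of the kind FXR binds (GGTCANTGACC, 0.0396%) was absent, as from nearly all windows, so its absence says little. The printed bases do hold GGGTCA, which differs from AGGTCA only in its first base. Variants of the hexamer and of the repeat were not searched. The 7 letters in capitals start 4 bases before the transcript start, and 3.21% of all windows hold them. This shorter motif was added after the sequence had been read. It overlaps the CRE and contains the core TGACG, which 20.8% of windows hold. Such matches describe letters, and no binding was measured.

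The 6 arrays had medians between 5.87 and 5.89, so they were on one scale. The gap between the 3′ and 5′ control probe sets of beta-actin, a sign of RNA quality, was 0.97 to 1.00 in GW4064 and 0.92 to 1.02 in vehicle livers, and these ranges overlapped. By limma, a moderated linear model fitted to all 22626 tested probe sets, 0 had an adjusted p under 0.05, against 1985 at an unadjusted p under 0.05. The methods' t-test also gave 0 after adjustment. Of the 3 probe sets of Per2 and Usp2, 0 were called, beside a background of 0%. Of the 45 marker genes of liver cell types examined, only the neutrophil and acute phase gene Lcn2 had a named probe set, so the liver label was not checked against hepatocyte markers here. In bulk liver, a change in the mix of cells and a change in mRNA per cell cannot be told apart.

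Per2, on chromosome 1 (band C5), was measured by probe set 1417602_at. Its log2 level was 6.63, 6.32 and 7.16 in GW4064 replicates 1, 2 and 3, and 5.55, 5.96 and 5.29 in vehicle replicates 1, 2 and 3. Every GW4064 liver was above every vehicle liver, but the lowest GW4064 liver, replicate 2, lay only 0.36 above the highest vehicle liver, also a replicate 2. That gap was smaller than the range within either group, 0.84 in GW4064 and 0.67 in vehicle livers. The group means were 6.71 ± 0.43 in GW4064 and 5.60 ± 0.34 in vehicle livers (SD, n = 3 each). The difference, GW4064 minus vehicle, was 1.10 (SE 0.23) or 2.15-fold. Against the vehicle mean, Per2 was 2.04-fold higher in GW4064 replicate 1, 1.64-fold in replicate 2 and 2.95-fold in replicate 3. The vehicle mean lay below 5.88, the median level of all tested probe sets, and no detection calls were used here, so the Per2 signal in vehicle livers was dim.

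Usp2, on chromosome 9 (band B), was measured by 2 probe sets. The suffix of 1417168_a_at marks a probe set designed against several transcripts of 1 gene. It read 7.52, 7.95 and 7.77 in GW4064 replicates 1, 2 and 3, and 5.50, 6.60 and 6.10 in vehicle replicates 1, 2 and 3. The lowest GW4064 liver lay 0.92 above the highest vehicle liver, more than the range of 0.43 within GW4064 livers but less than that of 1.10 within vehicle livers. The means were 7.75 ± 0.21 in GW4064 and 6.07 ± 0.55 in vehicle livers (SD, n = 3 each). The difference, GW4064 minus vehicle, was 1.68 (SE 0.25), which is 3.20-fold. Vehicle replicate 1, at 5.50, lay below the median level of 5.88, so the signal of that liver was dim too.

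The other Usp2 probe set, 1417169_at, gave a brighter signal. It read 8.96, 9.41 and 9.29 in GW4064 replicates 1, 2 and 3, and 7.25, 8.55 and 7.87 in vehicle replicates 1, 2 and 3. The groups again did not overlap, but vehicle replicate 2 came within 0.40 of GW4064 replicate 1, less than the range within either group (0.46 in GW4064 and 1.30 in vehicle livers). The means were 9.22 ± 0.24 in GW4064 and 7.89 ± 0.65 in vehicle livers (SD, n = 3 each). The difference was 1.33 (SE 0.29), which is 2.51-fold.

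**Figure D1:**
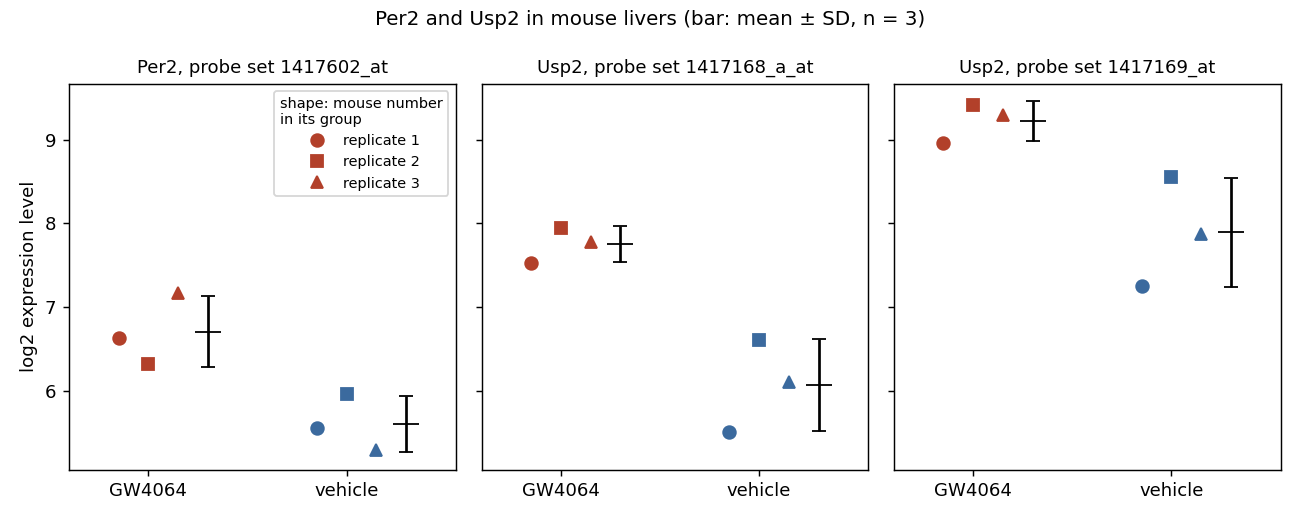
Log2 expression level (y axis) of the Per2 probe set and of both Usp2 probe sets in 3 GW4064 livers (red) and 3 vehicle livers (blue). Each point is a mouse, its shape gives the replicate number within the group (the labels name no pairing), and black bars are mean ± SD. All GW4064 points lie above all vehicle points in each panel, the narrowest gap being 0.36 for Per2, and for Usp2 the vehicle points are the more spread out.

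Among all tested probe sets, the differences of the 3 probe sets ranked 18th (Usp2, 1417168_a_at), 38th (Usp2, 1417169_at) and 52nd (Per2) from the highest of 22626. All 3 had no overlap between the groups, in a background where 6.7% of tested probe sets had every GW4064 array above every vehicle array. All 3 were also at least 1.5-fold higher at an unadjusted p under 0.05, which 0.632% of tested probe sets were. Since the list they came from was selected on this contrast, nothing is read from either count.

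The Usp2 probe sets were then compared with each other, since they report on 1 gene from the same RNA. They put the 6 livers in one and the same order, from GW4064 replicate 2 down through GW4064 replicates 3 and 1 to vehicle replicates 2, 3 and 1, and their levels correlated at r = 0.99 over the 6 arrays. They differed in the size of the difference. The level of 1417169_at minus that of 1417168_a_at on the same array was 1.43, 1.47 and 1.52 in GW4064 replicates 1, 2 and 3, and 1.75, 1.95 and 1.77 in vehicle replicates 1, 2 and 3. The gap was thus narrower in every GW4064 liver than in any vehicle liver, at 1.47 ± 0.04 in GW4064 and 1.82 ± 0.11 in vehicle livers (SD, n = 3 each). The difference of the gaps was -0.35, which means that the brighter probe set showed the smaller log2 difference between the groups. Both probe sets were chosen on the same contrast, so this is a description. Whether it came from the transcripts each probe set detects or from the brightness of the signal was not tested.

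**Figure D2:**
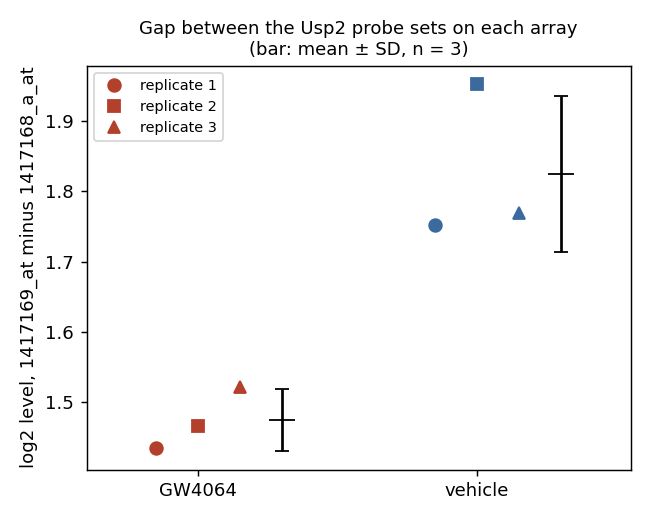
The log2 level of Usp2 probe set 1417169_at minus that of 1417168_a_at on each array (y axis, not starting at 0), for 3 GW4064 and 3 vehicle livers. Points are mice and bars are mean ± SD. The GW4064 points lie between 1.43 and 1.52, and the vehicle points between 1.75 and 1.95.

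The spread within groups was examined as well. A wide spread works against a small p in the listing, so these values are not free of the choice either. Usp2 varied more among vehicle than among GW4064 livers, with ranges of 0.43 and 0.46 in GW4064 and of 1.10 and 1.30 in vehicle livers for 1417168_a_at and 1417169_at. Its SD among vehicle livers was above that of 99.3% and 99.6% of all tested probe sets, whereas its SD among GW4064 livers was above that of 83.7% and 87.3%. For Per2 these shares were 97.2% in GW4064 and 96.9% in vehicle livers, so Per2 varied widely in both. The SD was larger in vehicle than in GW4064 livers for 35 of the 107 other listed probe sets (32.7%) and for 10824 of all 22626 (47.8%). Over those 107 the median SD was 0.32 in GW4064 and 0.23 in vehicle livers. With 3 mice in each group these spreads are themselves imprecise, and the difference in spread was not tested.

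The vehicle livers were not equal in these genes. Vehicle replicate 2 was the highest vehicle liver for Per2 and for both Usp2 probe sets. The lowest was replicate 3 for Per2 and replicate 1 for Usp2. Without vehicle replicate 2 the difference of Usp2 was 1.94 (SE 0.20) for 1417168_a_at and 1.66 (SE 0.21) for 1417169_at. Without vehicle replicate 1 it was 1.39 (SE 0.18) and 1.01 (SE 0.22).

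The order of the treated mice was examined next, because it does not enter the listing and because the GW4064 livers differed from each other across the listed probe sets. Among the 107 listed probe sets other than those of Per2 and Usp2, GW4064 replicate 1 lay farthest from the vehicle mean for 83 and replicate 3 for 7. Replicate 3 was nearest to the vehicle mean for 80 of them and replicate 1 for 6. The median distance from the vehicle mean was 1.03, 0.73 and 0.58 in replicates 1, 2 and 3. The full order of replicates 1, 2 and 3, farthest first, was held by 66 of these 107 probe sets, or 61.7%.

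Per2 and Usp2 did not have that order. Set against the vehicle mean, Per2 was higher by 1.03 in GW4064 replicate 1, 0.72 in replicate 2 and 1.56 in replicate 3, so the mouse that was nearest to vehicle for most listed probe sets had the highest Per2. Its order of replicates 3, 1 and 2 was shared by 4 of the 107 others (3.74%). For Usp2 the same distances were 1.45, 1.88 and 1.70 by 1417168_a_at, and 1.06, 1.52 and 1.40 by 1417169_at. Both probe sets had the order of replicates 2, 3 and 1, which 3 of the 107 others had (2.80%). Replicate 1, the farthest for most listed probe sets, was thus the lowest treated liver for Usp2. Among all 3137 probe sets without overlap between the groups, in either direction, the orders were less uneven. The order of replicates 1, 2 and 3 was held by 35.2%, that of Per2 by 10.8% and that of Usp2 by 9.05%. Within the treated livers the differences for Usp2 were small, with replicates 2 and 3 at 7.95 and 7.77 by 1417168_a_at, and 3 mice can take only 6 orders. None of these shares was tested.

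**Figure D3:**
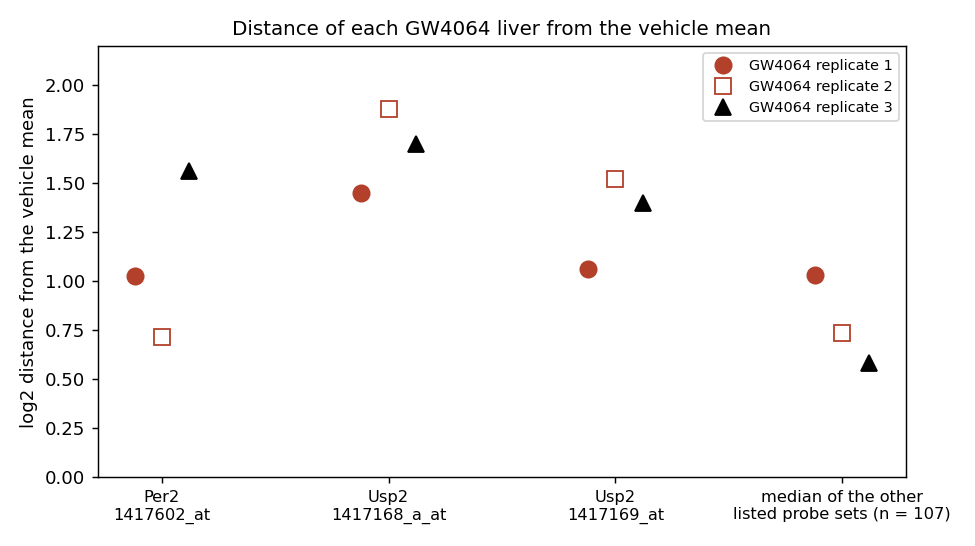
Log2 distance of each GW4064 liver from the mean of the 3 vehicle livers (y axis), for the probe sets of Per2 and Usp2 and as the median over the 107 other listed probe sets, each taken in its own direction. Replicate 3 (black) is highest for Per2 at 1.56 and lowest for the other listed probe sets at 0.58.

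Per2 and Usp2 were also set against each other. Over the 6 arrays the level of Per2 correlated with that of Usp2 at r = 0.85 (1417168_a_at) and 0.83 (1417169_at), a value that holds the difference between the groups for which both were listed. After subtraction of the group means it was 0.25 and 0.34. In vehicle livers replicate 2 was highest for both genes. In GW4064 livers the orders parted, since replicate 2 was highest for Usp2 and lowest for Per2. Correlations here are over 6 arrays that share 1 normalization and are given with no test.

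Genes with the most similar values were taken by a fixed rule from the 99 listed probe sets with 1 gene symbol. The 5 of highest r by level over the 6 arrays were taken, and the 5 of highest r by deviation from the group means. All were listed for a difference between the groups, so r by level holds that difference and is no separate sign of likeness. For Usp2, Ppp1r3c came first by level with both probe sets, at r = 0.96 (1417168_a_at) and 0.95 (1417169_at). It encodes a subunit that targets a phosphatase to glycogen. Its log2 level was 10.41, 10.83 and 10.16 in GW4064 replicates 1, 2 and 3, and 8.63, 9.65 and 9.40 in vehicle replicates 1, 2 and 3. As in Usp2, replicate 2 was the highest liver of each group and vehicle replicate 1 the lowest of all, while the lowest treated liver was replicate 3 and not replicate 1. The other genes near Usp2 by level were St3gal5, which encodes a ganglioside synthase, the guanine nucleotide exchange factor gene Rasgrp2, Tsc22d3 and the transcription factor gene Prox1, at r = 0.86 to 0.91 with either probe set. The suffix _x_at of the Rasgrp2 probe set marks possible detection of other genes.

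By deviation from the group means the gene nearest to Usp2 was Scp2, which encodes a sterol carrier protein, at r = 0.95 (1417168_a_at) and 0.97 (1417169_at). It went the other way between the groups. Its log2 level was 8.36, 8.62 and 8.71 in GW4064 replicates 1, 2 and 3, and 8.86, 9.62 and 9.17 in vehicle replicates 1, 2 and 3, a difference of -0.66 (SE 0.19). Mice of a group that were high in Usp2 were thus mostly high in Scp2, while GW4064 livers as a group were higher in Usp2 and lower in Scp2. Ppp1r3c came next, at r = 0.87 and 0.83, followed by the lymphatic growth factor gene Vegfd, the cell death gene Bcl2l11 and Tsc22d3 at r = 0.72 to 0.78. By ranks (Spearman) Tsc22d3 was less alike, at 0.49 (1417168_a_at) and 0.54 (1417169_at). The Vegfd probe set, an _x_at one, may detect other genes. Its signal was dim, with means of 4.35 in GW4064 and 5.20 in vehicle livers. Vegfd (-0.85, SE 0.16) and Bcl2l11 (-0.58, SE 0.16) were, like Scp2, lower in GW4064 livers, and Ppp1r3c and Tsc22d3 had the direction of Usp2.

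**Figure D4:**
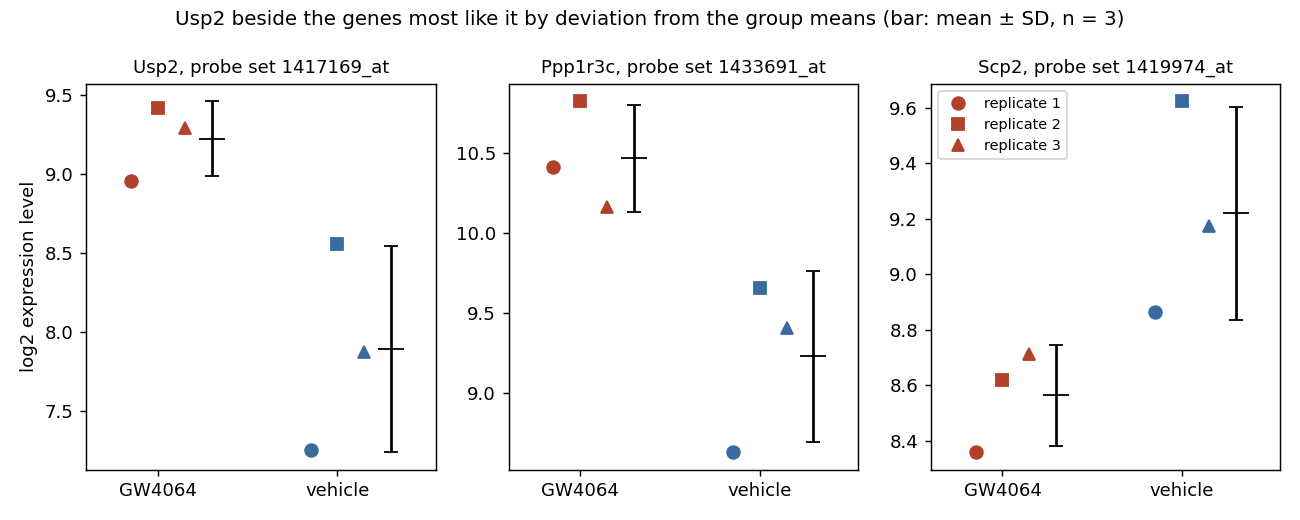
Log2 expression level (y axes, each with its own range) of Usp2, Ppp1r3c and Scp2 in 3 GW4064 and 3 vehicle livers, with mean ± SD as black bars. Vehicle replicate 2 (square) is the highest vehicle liver in all 3 panels, and Scp2 lies lower in GW4064 livers (8.36 to 8.71) than in vehicle livers (8.86 to 9.62).

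For Per2 the likeness was weaker. By level the nearest genes were Efhd2 (r = 0.895), Rdh9 (0.88), Aqp4 (0.85), Usp2 (0.85) and Ripk4 (0.80). Aqp4 was dim, with means of 5.19 in GW4064 and 4.40 in vehicle livers. Rdh9 encodes a dehydrogenase that acts on retinol and steroids, and its probe set may detect other genes, as its suffix _s_at marks. Its log2 level was 10.78, 10.27 and 10.41 in GW4064 replicates 1, 2 and 3, and 9.32, 10.03 and 8.76 in vehicle replicates 1, 2 and 3. Like Per2, it was lowest of the treated livers in replicate 2 and lowest of all in vehicle replicate 3. By deviation from the group means Lgals7, a galectin gene, came first at r = 0.90. It was lower in GW4064 livers, by -0.68 (SE 0.17). Lgals7 was dim, with means of 4.76 in GW4064 and 5.45 in vehicle livers, below the median level of 5.88. Hspb1, Epb41l2, Csad and Rdh9 followed at r = 0.61 to 0.76. Of these, Hspb1 (-1.10, SE 0.17), Epb41l2 (-0.70, SE 0.14) and Csad (-2.75, SE 0.29) were lower in GW4064 livers as well, so only Rdh9 among the 5 genes had the direction of Per2 between the groups. By their suffixes, the probe sets of Ripk4 and Epb41l2 (_s_at) and of Hspb1 (_x_at) may detect other genes too.

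Other genes of the clock could hardly be followed. Of 33 genes in lists of clock activators, clock repressors, the nuclear receptor loop, D-box factors, modifiers of clock proteins and clock output genes, 2 had a named probe set, and these were Per2 and Usp2. Per2 was the 1 of 8 repressors. Usp2 was the 1 of 6 modifiers, the 1 of 9 output genes and the 1 of 16 deubiquitinases. Names came only from the authors' list, which was selected for a difference between the groups. A gene without a named probe set was thus not named alone on that list, and the arrays may still have measured it. The other 31 clock genes, Clock, Bmal1, Per1, Cry1, Nr1d1 and Dbp among them, are not analysed here. The phase of the clock in these livers was therefore not read.

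Per2 also belongs to the genes that glucocorticoids induce, a list with more members that had a named probe set. Of 18 such genes, 6 had a named probe set, and 0 of their 7 probe sets passed the adjusted threshold in either direction. Besides Per2, Lcn2, Fkbp5, Zbtb16 and Tsc22d3 were higher in GW4064 livers and Igfbp1 was lower. Igfbp1, whose secreted product binds insulin-like growth factors, read 9.11, 9.75 and 10.31 in GW4064 replicates 1, 2 and 3, and 11.68, 10.54 and 11.46 in vehicle replicates 1, 2 and 3, so vehicle replicate 2, the highest vehicle liver for Per2 and Usp2, was the lowest for Igfbp1. The probe sets were listed for a difference in these livers, so their directions are no independent evidence. Tsc22d3, which encodes the glucocorticoid-induced leucine zipper protein, read 10.30, 10.49 and 10.78 in GW4064 replicates 1, 2 and 3, and 9.53, 10.09 and 10.18 in vehicle replicates 1, 2 and 3, a difference of 0.59 (SE 0.19). Like Per2 it was highest in GW4064 replicate 3. Among vehicle livers the genes differed, since replicate 3 was the highest for Tsc22d3 and the lowest for Per2.

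Fkbp5, which encodes a cochaperone of the glucocorticoid receptor, read 10.27, 9.72 and 9.07 in GW4064 replicates 1, 2 and 3, and 7.91, 7.93 and 8.56 in vehicle replicates 1, 2 and 3. Here replicate 3 was the lowest treated liver. The probe sets of Zbtb16, a gene of a zinc finger transcription factor, disagreed on the order, with replicate 3 lowest of the treated livers at 7.33 by 1419874_x_at, whose suffix marks possible detection of other genes, and highest at 6.75 by 1427638_at. The order of the treated mice thus differed within this list. Lcn2, Fkbp5 and Igfbp1 had the order of replicates 1, 2 and 3, farthest from vehicle first, which most listed probe sets had, whereas Tsc22d3 and Zbtb16 by 1427638_at had the reverse.

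Lcn2 was the only cell type marker with a named probe set, as 1 of 12 neutrophil markers, and hepatocytes make it too in the acute phase. It read 13.67, 12.97 and 8.05 in GW4064 replicates 1, 2 and 3, and 5.95, 6.21 and 5.46 in vehicle replicates 1, 2 and 3. Lcn2 therefore moved with the groups as Per2 and Usp2 did, and its part in their differences was not tested. Its level in GW4064 replicate 3, far below that of the other treated livers, stood beside the highest Per2 and the second highest Usp2 of the 6 livers.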

How the data were processed

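The authors hybridized liver RNA of 3 GW4064 and 3 vehicle mice to Affymetrix arrays and deposited log2 expression levels per probe set, made with Affymetrix Power Tools and normalized between arrays. How probes were summarised, and with which version, is not given in the sources used here. Labels name the Mouse Gene 1.0 ST array, but the probe set identifiers and the deposited list's header are those of Mouse430A_2. That list also holds the authors' folds and directions, which were not used. It alone paired probe sets with genes, and symbols were updated through Entrez numbers (99 of 99 matched in RefSeq GRCm38.p6).

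The 64 control probe sets were set aside, and 22626 were fitted with limma 3.58.1 in R 4.3.3 (group as the only term, Benjamini-Hochberg adjustment). A trial of the fit on simulated data used a larger log2 difference than those of Per2 and Usp2. It does not show how well the fit suits these data. The small number of arrays limits the precision. The exact permutation test planned for the Usp2 probe sets is not given, because both were chosen on the contrast and 3 against 3 mice cannot go below 0.1. The labels give 1 mouse per array and nothing on litter or cage, so SDs measure the spread between these mice. SEs of differences are limma's moderated ones, which also draw on the spread of other probe sets. By the methods' t-test the SE was 0.31 for Per2 in place of 0.23. For Usp2 it was 0.34 in place of 0.25 (1417168_a_at) and 0.40 in place of 0.29 (1417169_at). Named genes are Per2, Usp2, up to 12 list genes, and for each probe set the 5 other genes of highest Pearson r by level and by deviation. Members and lists were chosen with earlier results of these data known.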

Additional observations from a re-analysis of the deposited data

How the results depend on the processing

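All 39 alternative values of the Per2 and Usp2 differences kept their direction. As the groups did not overlap, leaving out or weighting arrays could not have reversed them. The values from linear group means have no adjusted p, and 0 of the others passed the adjusted threshold. By limma the lowest adjusted p was 0.081, for Usp2 1417168_a_at without GW4064 replicate 3. With the replicate block it was 0.095 for that probe set. Both values come from the contrast on which the probe set was listed and are given as a description. Per2 ranged from 0.87 (without GW4064 replicate 3) to 1.29, and Usp2 from 1.39 to 1.94 (1417168_a_at) and from 1.01 to 1.66 (1417169_at). The Usp2 gap difference of -0.35 ranged from -0.39 to -0.29 without 1 array. Normalizing the quantiles again kept the order of the treated mice for all 3 probe sets and gave 65 in place of 66 other listed probe sets with the order of replicates 1, 2 and 3.

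With all 6 arrays, 0 probe sets passed the adjusted threshold under any setting. Leaving out 1 array gave 0 to 70, with the highest count without GW4064 replicate 3. At 1.5-fold and an unadjusted p under 0.05, 143 were higher and 140 lower. The methods' t-test, which takes each spread from 6 values alone, gave 59 and 38, and leaving out 1 array gave 90 to 247 and 68 to 326. A fit with the replicate block gave 0 past the adjusted threshold, 147 higher and 157 lower. The labels name no pairing of mice by number. Over all probe sets, deviations of same-numbered mice correlated at -0.0019, 0.05 and -0.03, which cannot decide whether such mice were handled together. With the replicate block the SE fell from 0.25 to 0.14 for Usp2 1417168_a_at and from 0.29 to 0.16 for 1417169_at. For Per2 it rose from 0.23 to 0.26. The Per2 mean of vehicle livers, and Usp2 1417168_a_at in vehicle replicate 1, lay below the median level of all probe sets. Dim signal there limits what can be read.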
